A study of Mus musculus with 8 samples.

Results

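Fatty acid and cholesterol synthesis genes were followed in paw tissue of prolactin-treated mice as 32 named genes among the 22609 gene symbols of the count files. The genes were taken by symbol: 18 belong to a fatty acid and triglyceride branch and 14 to a sterol branch. Of the 32, 31 passed the filter on low counts, 18 in the first branch and 13 in the second. The exception was Hmgcs1, the enzyme that forms HMG-CoA on the way to mevalonate, which is listed with 0 counts in each of the 8 libraries. At these depths 0 counts allow up to 0.116 to 0.177 CPM (3 counts per library, counting error only), and whether the counting could place reads on this gene was not tested, so nothing is read from it.

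There were 4 libraries from female and 4 from male mice of the inbred strain C57BL/6J. All 8 came from mice given 0.1 µg prolactin (PRL), the pituitary hormone best known for lactation, by injection into the sole of the paw, once per day for 12 days. No PBS-injected paw was analysed here, so every value describes prolactin-treated tissue and the design compares females with males. The labels name paw tissue as the source, so each library can mix skin, fat, muscle, nerve and blood cells, and fewer cells of a type cannot be told apart from less RNA per cell.

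De novo fatty acid synthesis starts from cytosolic citrate, which is split to acetyl-CoA, carboxylated to malonyl-CoA and built into palmitate, then elongated, desaturated and esterified to triglyceride. Cholesterol synthesis starts from the same acetyl-CoA and runs through mevalonate, isoprenoid units and squalene to lanosterol, which is demethylated and reduced to cholesterol. The transcription factors SREBP1 (gene Srebf1) and SREBP2 (gene Srebf2) drive the branches when membranes are short of sterol, and INSIG1 holds them back. In skin, epidermal keratinocytes make cholesterol and fatty acids for the barrier, sebaceous glands make lipid for secretion, and adipocytes make and store triglyceride.

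Counts in genes summed to 16753528 to 24993744 per library, and values are given in CPM, each gene's count scaled to the size of its library, with TMM factors (a normalization that assumes most genes do not differ). Xist had 27081 counts or more in each female library and 39 or fewer in each male library. Female replicate 3 stood apart with little muscle: the 16 fast muscle markers summed to 40.8 CPM there, against 1021 to 30318 CPM in the other 7 libraries, with the most in male replicate 2. Results that rest on these libraries are given with and without them. All marker genes of keratinocytes (15 of 15), sebocytes (12 of 12), adipocytes (14 of 14) and fast muscle (16 of 16) had counts in every library.

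Per length of exon, the highest levels among the members belonged to the desaturases Scd1 and Scd2 and to Dgat2. Levels per kilobase used the exon union of the GENCODE M21 annotation, which is not the annotation of the counting, so the order is approximate. Scd1, the stearoyl-CoA desaturase that makes monounsaturated fatty acids, averaged 259 CPM per kb over the 8 libraries. Dgat2, which adds the last acyl chain to triglyceride, averaged 179 CPM per kb and overlapped in its libraries with Scd1 and with Scd2 (166 CPM per kb). Sc4mol (now Msmo1), a sterol methyl oxidase, led the sterol branch at 148 CPM per kb, ahead of Sqle (94.8) and Dhcr7 (79.4). At the low end stood Mlxipl (2.03), Thrsp (2.53) and Idi1 (3.298 CPM per kb).

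**Figure D1:**
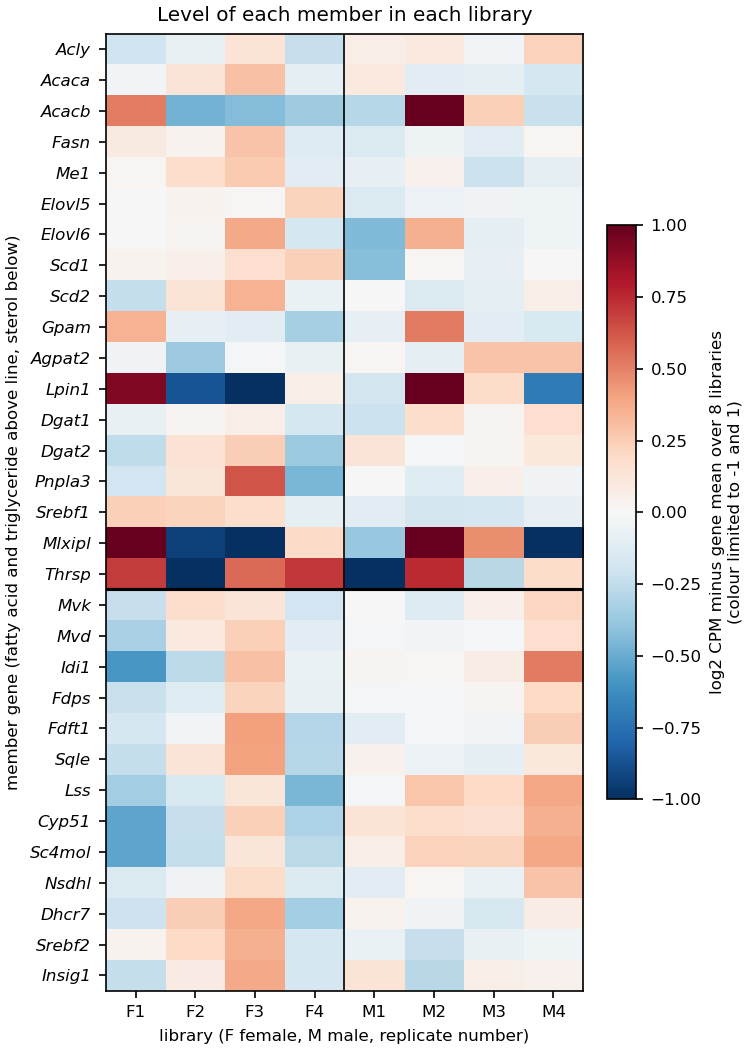
Level of the 31 counted members in each library, as log2 CPM minus the gene's mean over the 8 libraries. Columns are female replicates 1 to 4 and male replicates 1 to 4; the line parts the 18 fatty acid and triglyceride genes from the 13 sterol genes. Sterol genes shift together, low in female replicates 1 and 4 and high in female replicate 3 and male replicate 4, while Lpin1, Mlxipl and Acacb are high in female replicate 1 and male replicate 2.

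Between the sexes, no member was called. edgeR's quasi-likelihood test with Benjamini-Hochberg adjustment over 14790 genes called 0 of 31 members at an adjusted p under 0.05, where it called 0.0947% of all tested genes, 0.0406% higher and 0.0541% lower in females. DESeq2 called 0 of 31 (0.757% of all genes) and limma-voom 0 of 31 (0.108%). At an unadjusted p under 0.05 edgeR had 4 of 31 members, against 6.53% of all genes. Srebf1 was higher in females (1 of 31, against 4.08% of all genes), and Lss, Cyp51 and Sc4mol were lower in females (3 of 31, against 2.45%). The lowest adjusted p among members was 0.643, for Sc4mol. The sexes did not overlap in CPM for 2 of 31 members, Scd1 and Elovl5, both higher in females, where 4.73% of all genes did not overlap, 2.93% with females higher and 1.81% with females lower. The median log2 fold change, female over male, was 0.10 over the 18 fatty acid and triglyceride genes and -0.055 over the 13 sterol genes, beside 0.010 over all tested genes.

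The intervals show how large a difference these data leave room for. For 27 of 31 members the 95% interval of the fold change lay within 2-fold in either direction, and for 22 within 1.5-fold. The 4 wider ones were Acacb, Lpin1, Mlxipl and Thrsp, whose highest and lowest libraries were also the farthest apart, 2.83-fold to 14.3-fold.

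**Figure D2:**
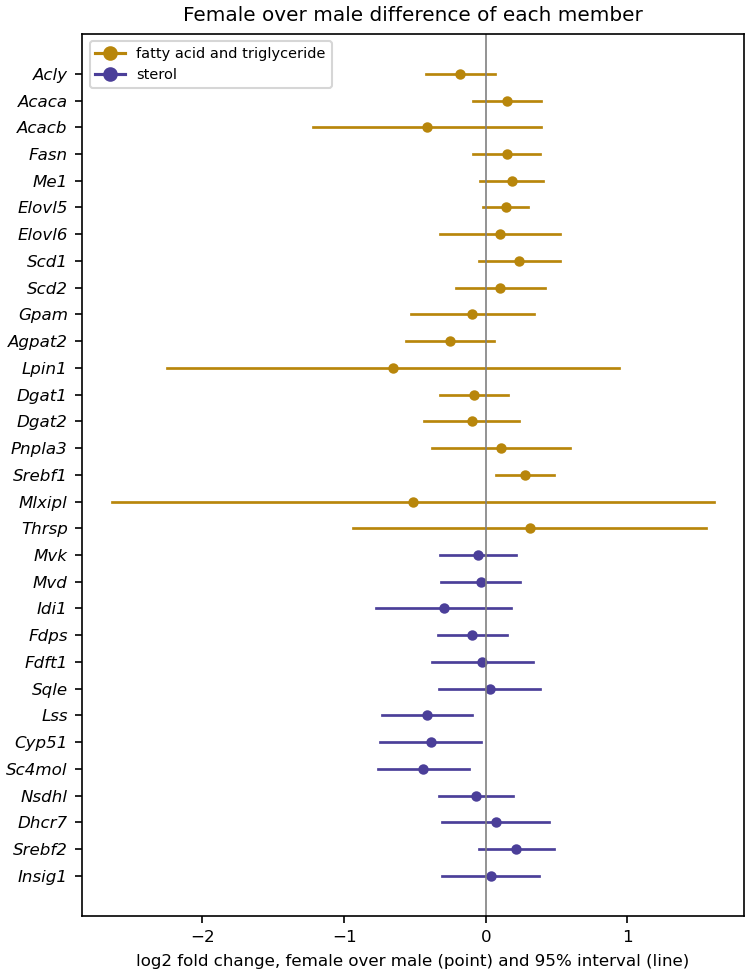
Log2 fold change, female over male, of the 31 counted members with its 95% interval from the edgeR fit, fatty acid and triglyceride genes first and sterol genes after them. The intervals of 27 members lie within 2-fold, and Lss, Cyp51 and Sc4mol lie lowest among the sterol genes.

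Of the 9 enzymes that make, elongate and desaturate fatty acids, 7 lay above 0 and 2 below, with 0 called. Scd1 had 1273, 1288, 1394 and 1466 CPM in female replicates 1 to 4, against 926, 1259.8, 1173 and 1238 CPM in male replicates 1 to 4. Every female library lay above every male library, and Scd1 averaged 1355 ± 91.0 CPM over the females and 1149 ± 153 CPM over the males (SD, n = 4 each; edgeR adjusted p = 0.816 at a log2 fold change of 0.24 with SE 0.12, 95% interval -0.045 to 0.52). Elovl5, which elongates polyunsaturated fatty acids, had 81.4, 83.1, 81.8 and 94.3 CPM in the females, against 73.3, 77.9, 79.2 and 78.5 CPM in the males. Its female libraries also lay above all male ones, by a small margin (edgeR adjusted p = 0.790 at a log2 fold change of 0.14 with SE 0.069).

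Fasn, the synthase that builds palmitate, had 382, 366, 437 and 328 CPM in female replicates 1 to 4, against 324, 346, 333 and 364 CPM in male replicates 1 to 4. The sexes overlapped and the difference did not pass (edgeR adjusted p = 0.917 at a log2 fold change of 0.15 with SE 0.10, 95% interval -0.087 to 0.38). Acly, which splits citrate to supply the acetyl-CoA, had 297, 324, 376 and 289.6 CPM in the females, against 356, 364, 335 and 400.1 CPM in the males. It was 1 of the 2 enzymes of this group below 0, and its libraries overlapped (edgeR adjusted p = 0.868 at a log2 fold change of -0.18 with SE 0.11). Me1, the malic enzyme that supplies NADPH, averaged 139 ± 15.4 CPM over the females and 123 ± 9.04 CPM over the males (edgeR adjusted p = 0.824 at a log2 fold change of 0.18 with SE 0.10). Acaca, the cytosolic acetyl-CoA carboxylase, averaged 40.7 ± 4.998 CPM over the females and 36.6 ± 3.13 CPM over the males (edgeR adjusted p = 0.918 at a log2 fold change of 0.15 with SE 0.11). For both genes the sexes overlapped.

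Scd2, the desaturase isoform best known from brain, had 762, 986, 1141 and 856 CPM in the females, against 902, 810.4, 840.5 and 938 CPM in the males. Its highest library was female replicate 3 and its lowest female replicate 1, and the sexes overlapped (edgeR adjusted p = 0.999 at a log2 fold change of 0.10 with SE 0.14). Elovl6, which elongates palmitate to stearate, spanned 592 to 1045 CPM over the 8 libraries, with male replicate 1 lowest and female replicate 3 highest (edgeR adjusted p = 0.999 at a log2 fold change of 0.10 with SE 0.19). Acacb, the carboxylase of the mitochondrial surface whose product restrains fatty acid oxidation, had 108, 54.6, 55.9 and 59.2 CPM in female replicates 1 to 4, against 62.0, 154, 89.2 and 64.7 CPM in male replicates 1 to 4. Female replicate 1 and male replicate 2 stood above the rest, which are also the libraries with the most fast muscle transcript (edgeR adjusted p = 0.963 at a log2 fold change of -0.42 with SE 0.35). Without female replicate 3 and male replicate 2 the log2 fold change of Acacb was 0.021. Scd1 and Scd2 are close relatives, and alignments that were not unique, 45.2 to 48.7% of all entries per library, were not counted to any gene. Their share for single genes was not measured.

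Triglyceride assembly genes lay below 0 in 5 of 6 cases, none of them called. Dgat2 had 336, 442, 475 and 309 CPM in female replicates 1 to 4, against 439, 394, 408 and 432 CPM in male replicates 1 to 4. The low libraries were female replicates 1 and 4 and the sexes overlapped (edgeR adjusted p = 0.999 at a log2 fold change of -0.10 with SE 0.15). Dgat1, the other enzyme of the last step, had a highest library only 1.31-fold above its lowest, at 44.1 ± 3.34 CPM over the females and 46.8 ± 5.69 CPM over the males (edgeR adjusted p = 0.999 at a log2 fold change of -0.085 with SE 0.10). Gpam, the mitochondrial acyltransferase of the first step, averaged 115 ± 23.6 CPM over the females and 122 ± 29.5 CPM over the males (edgeR adjusted p = 0.999 at a log2 fold change of -0.094 with SE 0.19). Agpat2, which adds the second acyl chain, averaged 10.2 ± 1.08 CPM over the females and 12.2 ± 1.63 CPM over the males (edgeR adjusted p = 0.8292 at a log2 fold change of -0.25 with SE 0.14). Pnpla3, a lipid droplet acylhydrolase, was the member of this group above 0, at 23.9 ± 8.08 CPM over the females and 22.2 ± 1.14 CPM over the males (edgeR adjusted p = 0.999 at a log2 fold change of 0.11 with SE 0.21), and lay below 0 without female replicate 3 (log2 fold change -0.13).

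Lpin1, a phosphatidate phosphatase and transcriptional coactivator with high levels in muscle and fat, had 55.6, 16.1, 12.3 and 30.5 CPM in female replicates 1 to 4, against 25.8, 103, 33.3 and 17.9 CPM in male replicates 1 to 4. Its libraries differed by up to 8.38-fold, more than any other member except Mlxipl. The sexes overlapped (edgeR adjusted p = 0.999 at a log2 fold change of -0.66 with SE 0.68), and the direction turned without female replicate 3 and male replicate 2 (log2 fold change 0.39).

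Among the regulators of fatty acid synthesis, Srebf1 was higher in females at an unadjusted p of 0.0149 and did not pass over all genes. It had 287, 284, 275 and 228 CPM in female replicates 1 to 4, against 226, 215, 217 and 229.5 CPM in male replicates 1 to 4. In female replicates 1 to 3 it lay above all males, and in female replicate 4 it lay inside the male range (edgeR adjusted p = 0.650 at a log2 fold change of 0.28 with SE 0.090, 95% interval 0.069 to 0.48). Mlxipl, which encodes the carbohydrate-responsive factor ChREBP, was low, at 14.3, 2.54, 1.81 and 5.67 CPM in the females, against 3.78, 22.4, 6.87 and 1.57 CPM in the males. Like Lpin1 it was highest in male replicate 2 and female replicate 1 (edgeR adjusted p = 0.999 at a log2 fold change of -0.51 with SE 0.91). Without female replicate 3 and male replicate 2 its log2 fold change was 0.86. Thrsp, a small protein that promotes lipogenesis, was also low, at 4.60, 0.878, 4.19 and 4.63 CPM in the females, against 1.29, 4.76, 2.29 and 3.18 CPM in the males. Female replicate 2 and male replicate 1 were its low libraries, so that both sexes held high and low values (edgeR adjusted p = 0.999 at a log2 fold change of 0.31 with SE 0.54).

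In the sterol branch, no enzyme up to squalene epoxidase had a 95% interval that excluded 0. Mvk, mevalonate kinase, averaged 74.6 ± 10.8 CPM over the females and 77.5 ± 7.49 CPM over the males (edgeR adjusted p = 0.999 at a log2 fold change of -0.055 with SE 0.12). Mvd, the decarboxylase that makes isopentenyl diphosphate, averaged 82.4 ± 13.9 CPM over the females and 84.5 ± 5.75 CPM over the males (edgeR adjusted p = 0.999 at a log2 fold change of -0.036 with SE 0.12). Fdps, which makes farnesyl diphosphate, averaged 50.1 ± 6.95 CPM over the females and 53.5 ± 3.91 CPM over the males, and Fdft1, squalene synthase, 78.1 ± 17.6 CPM over the females and 79.4 ± 9.07 CPM over the males. Idi1, the isomerase of isopentenyl diphosphate, stood at 8.96 ± 2.31 CPM over the females and 11.0 ± 2.004 CPM over the males (edgeR adjusted p = 0.917 at a log2 fold change of -0.30 with SE 0.21). Sqle, squalene epoxidase and a rate-limiting step of the later pathway, had 219, 282, 342 and 212 CPM in female replicates 1 to 4, against 266, 249, 243 and 278 CPM in male replicates 1 to 4. Female replicates 2 and 3 lay above every male, and female replicates 1 and 4 below every male (edgeR adjusted p = 0.999 at a log2 fold change of 0.027 with SE 0.16).

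The 3 members with the lowest log2 fold changes of the sterol branch make or act on its first ring-shaped products. Lss closes squalene epoxide to lanosterol, and had 71.0, 81.3, 98.3 and 65.8 CPM in female replicates 1 to 4, against 89.1, 110, 104 and 118 CPM in male replicates 1 to 4. Female replicate 3 reached the male range and the other 3 females lay below it (edgeR adjusted p = 0.667 at a log2 fold change of -0.41 with SE 0.14, 95% interval -0.73 to -0.095). Cyp51, the lanosterol demethylase of the cytochrome P450 family, had 151, 186, 256 and 175 CPM in the females, against 239, 246, 243 and 278 CPM in the males. Female replicate 3 again lay among the males and the other 3 females below them (edgeR adjusted p = 0.746 at a log2 fold change of -0.39 with SE 0.16). Sc4mol, which oxidises the methyl groups at carbon 4, had 205, 251, 323 and 246 CPM in the females, against 310.2, 347, 346 and 387 CPM in the males. It showed the same order, with female replicate 3 inside the male range (edgeR adjusted p = 0.643 at a log2 fold change of -0.44 with SE 0.14, 95% interval -0.76 to -0.12). Without female replicate 3 the log2 fold changes were -0.54 for Lss, -0.56 for Cyp51 and -0.57 for Sc4mol. The edgeR adjusted p values of that fit were 0.410, 0.280 and 0.363, still short of the threshold. With the fast muscle level as a covariate the log2 fold changes were -0.50, -0.52 and -0.54 for Lss, Cyp51 and Sc4mol (edgeR adjusted p = 0.219, 0.0824 and 0.104). With the keratinocyte level as a covariate, added after these data were seen, they were -0.36, -0.32 and -0.39 (edgeR adjusted p = 0.147, 0.187 and 0.137).

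The last enzymes of the list lay near 0. Nsdhl, an X-linked dehydrogenase that works beside Sc4mol, averaged 49.6 ± 5.37 CPM over the females and 52.0 ± 6.73 CPM over the males (edgeR adjusted p = 0.999 at a log2 fold change of -0.068 with SE 0.11). Dhcr7, which makes the final reduction of 7-dehydrocholesterol, had 225, 307, 340.2 and 205 CPM in the females, against 266, 254, 233 and 274 CPM in the males. Female replicates 2 and 3 lay above every male and female replicates 1 and 4 below every male (edgeR adjusted p = 0.999 at a log2 fold change of 0.071 with SE 0.16). Among the regulators, Srebf2 had 198, 221, 246 and 171 CPM in female replicates 1 to 4, against 184, 164, 183 and 187 CPM in male replicates 1 to 4. Female replicates 1 to 3 lay above every male, and female replicate 4 lay inside the male range (edgeR adjusted p = 0.827 at a log2 fold change of 0.22 with SE 0.12, 95% interval -0.048 to 0.48). Insig1, which retains the SREBPs in the endoplasmic reticulum, averaged 76.9 ± 15.5 CPM over the females and 75.1 ± 9.07 CPM over the males (edgeR adjusted p = 0.999 at a log2 fold change of 0.035 with SE 0.15).

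Below 0 lay 9 of the 13 sterol genes, against 47.3% of all tested genes. That count was 12 without female replicate 3, 11 without male replicate 2, 12 without both, 6 without female replicate 1 and 5 without male replicate 4. It was 12 with the fast muscle level as a covariate. It was 6 once the keratinocyte level entered as a covariate, where Mvk, Mvd and Fdft1, near 0 in either fit, changed sign and Lss, Cyp51 and Sc4mol stayed below 0. Keratinocyte markers lay below 0 in 11 of 15 cases (median log2 fold change -0.11), sebocyte markers in 8 of 12 (-0.13) and fast muscle markers in 15 of 16 (-0.48), while hair follicle markers lay above 0 in 11 of 11 (0.59), with 0 called by edgeR. The sebocyte markers Fa2h and Elovl3 and the keratinocyte marker Lor did not overlap between the sexes and were called lower in females by DESeq2 (adjusted p = 0.000181, 0.00121 and 0.00496). These 3 were singled out after their values were seen. Keratinocytes entered only through this covariate, whose own markers mostly lay lower in females. The covariate cannot decide their part in the sterol values, which was not tested. The sebocyte level did not enter as a covariate, and its part was not tested.

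The promoters of the 3 low enzymes and of the 2 mevalonate enzymes upstream are shown because the sterol genes moved together across the libraries. Promoter windows, from 250 bases before to 50 bases after the start, come from RefSeq on GRCm38.p6. The counts were made on mm9, so these coordinates do not belong to the count files. A window was found for 25 of 32 members, Sc4mol under its newer symbol Msmo1. Shown are Lss at chr10:76531355-76531654 on the plus strand, Cyp51 at chr5:4104648-4104947 on the minus strand, Sc4mol at chr8:64733529-64733828 on the minus strand, Mvk at chr5:114444019-114444318 on the plus strand and Mvd at chr8:122443373-122443672 on the minus strand. Capitals mark CCAAT, the letters that the factor NF-Y recognises, on either strand, so that it reads ATTGG where it lies on the other strand.
Lss: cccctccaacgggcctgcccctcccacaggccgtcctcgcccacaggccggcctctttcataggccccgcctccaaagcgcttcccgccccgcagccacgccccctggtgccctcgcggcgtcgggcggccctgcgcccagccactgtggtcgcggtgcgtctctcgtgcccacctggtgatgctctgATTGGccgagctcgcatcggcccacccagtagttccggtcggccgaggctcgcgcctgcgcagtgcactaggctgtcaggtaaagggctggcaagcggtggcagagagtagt
Cyp51: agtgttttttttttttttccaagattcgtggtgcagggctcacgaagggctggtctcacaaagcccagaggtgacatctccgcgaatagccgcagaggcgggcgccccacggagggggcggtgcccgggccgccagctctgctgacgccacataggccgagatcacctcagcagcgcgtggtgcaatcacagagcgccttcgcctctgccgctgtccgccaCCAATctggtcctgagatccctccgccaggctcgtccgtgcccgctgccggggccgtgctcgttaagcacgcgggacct
Sc4mol: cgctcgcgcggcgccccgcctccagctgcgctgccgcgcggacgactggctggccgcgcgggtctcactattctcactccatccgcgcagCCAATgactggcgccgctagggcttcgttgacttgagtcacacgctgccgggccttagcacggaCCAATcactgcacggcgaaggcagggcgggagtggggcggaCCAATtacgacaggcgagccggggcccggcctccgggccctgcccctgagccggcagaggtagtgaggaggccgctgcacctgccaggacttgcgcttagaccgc
Mvk: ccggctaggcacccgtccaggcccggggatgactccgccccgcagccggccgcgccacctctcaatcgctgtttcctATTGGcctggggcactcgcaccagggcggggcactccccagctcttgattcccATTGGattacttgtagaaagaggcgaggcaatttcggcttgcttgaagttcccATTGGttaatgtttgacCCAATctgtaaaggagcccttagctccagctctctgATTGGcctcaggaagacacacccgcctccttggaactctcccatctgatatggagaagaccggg
Mvd: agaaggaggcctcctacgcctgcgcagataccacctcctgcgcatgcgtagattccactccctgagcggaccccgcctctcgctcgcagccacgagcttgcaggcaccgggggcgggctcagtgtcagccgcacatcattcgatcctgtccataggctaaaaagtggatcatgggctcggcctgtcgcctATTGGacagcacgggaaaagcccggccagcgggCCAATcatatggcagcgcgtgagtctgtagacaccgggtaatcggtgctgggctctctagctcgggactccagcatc

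CCAAT occurred in a window of all 11 sterol members that had one, beside 41.1% of 27025 genes counted the same way and 37.4% of 32851 windows. GGGCGG, the letters of the factor Sp1, searched on both strands, also occurred in 11 of 11, beside 38.2% of genes. Among fatty acid and triglyceride members with a window, 10 of 14 held CCAAT and 7 of 14 held GGGCGG. TCACNCCAC, a form of the sterol regulatory element, occurred in 2 of 25 members, Hmgcs1 and Mlxipl, beside 1.44% of genes. CACGTG, an E-box, occurred in 4 of 25 members, beside 8.09% of genes. None of the 4 motifs contains another, though matches to different motifs can share bases at their ends. The matches describe these windows and are no measure of binding. In the windows above, Mvk held 5 matches to CCAAT, Sc4mol 3, Mvd 2, and Lss and Cyp51 1 each.

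Ratios between members within a library cancel only what moves both members by the same factor. What moves them unequally stays in the ratio. Without female replicates 4 and 1, r with the keratinocyte level was 0.830 for Sqle, against -0.333, -0.048 and -0.278 for Lss, Cyp51 and Sc4mol. Whether the mix of cells enters these ratios was not tested. The sexes did not overlap in many sterol ratios, nearly all of them with Cyp51, Sc4mol or Lss. Of 78 ratios between the 13 sterol members, 25 (32.1%) did not overlap between females and males. Over all 70858560 pairs of genes with a mean CPM of at least 5 the share was 4.85%. These 78 ratios share members, and genes that follow each other closely across libraries give ratios with little spread, so the shares are a description with no test. Of the 12 ratios that each gene enters, those without overlap were 9 for Cyp51, 8 for Sc4mol, 7 for Lss and 0 to 4 for the other 10 genes. The 32.1% therefore rests mostly on Cyp51, Sc4mol and Lss. The ratio Sqle to Cyp51 was 1.45, 1.52, 1.33 and 1.21 in female replicates 1 to 4, against 1.11, 1.01, 0.998 and 1.002 in male replicates 1 to 4. Every female library lay above every male library. For Sqle to Lss the ratio was 3.09, 3.48, 3.48 and 3.22 in female replicates 1 to 4, against 2.98, 2.26, 2.33 and 2.35 in male replicates 1 to 4. For Sqle to Sc4mol it was 1.07, 1.12, 1.06 and 0.862 in female replicates 1 to 4, against 0.857, 0.717, 0.702 and 0.719 in male replicates 1 to 4. In both cases the sexes stayed apart, the second by the narrow gap between female replicate 4 and male replicate 1.

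Upstream of Sqle the pattern held for Mvd to Cyp51, at 0.434 ± 0.0393 in females and 0.336 ± 0.00483 in males (SD, n = 4 each). Fdft1 to Sc4mol stood at 0.305 ± 0.0338 in females and 0.228 ± 0.00899 in males. By contrast Sqle to Dhcr7 overlapped, at 0.983 ± 0.0484 in females and 1.01 ± 0.0268 in males. These ratios were picked out after their values were seen. Idi1, also upstream of Sqle, kept the sexes apart in 0 of its 12 ratios to other sterol members.

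**Figure D3:**
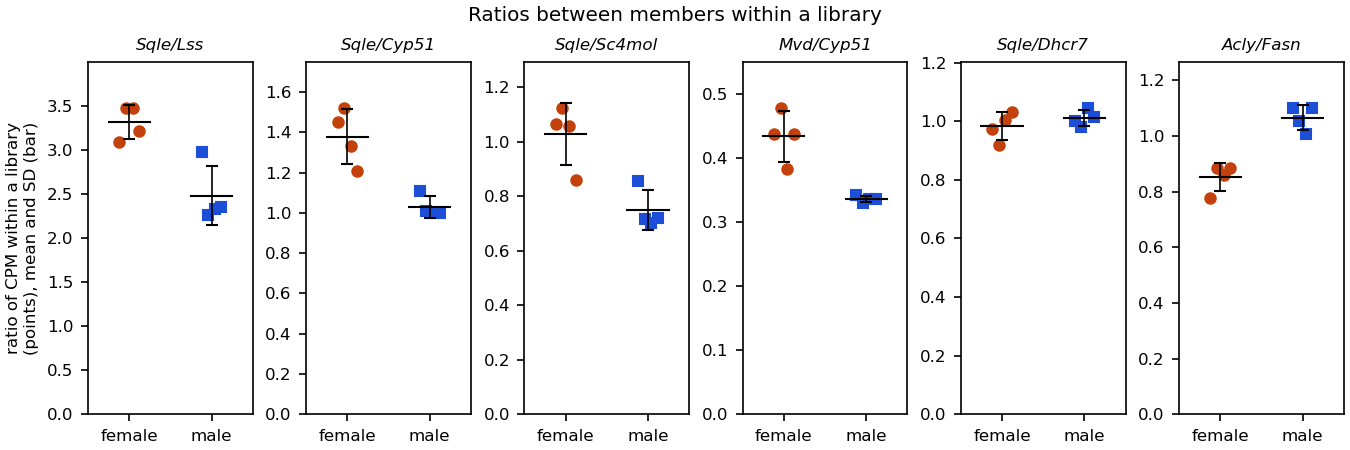
Ratio of CPM between 2 members within each library, females left and males right in each panel (points), with mean and SD (bars, n = 4 each); each axis starts at 0. Female ratios lie above all male ratios for Sqle/Lss, Sqle/Cyp51, Sqle/Sc4mol and Mvd/Cyp51, overlap for Sqle/Dhcr7 and lie below all male ratios for Acly/Fasn.

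Sterol members moved together across the libraries, and fatty acid and triglyceride members less so. Over the 8 libraries the median Pearson r between sterol members was 0.709 over 78 pairs, with 96.2% of pairs above 0. Between fatty acid and triglyceride members it was 0.0959 over 153 pairs, and between the branches 0.137 over 234 pairs. All gene pairs at a mean CPM of at least 5 had a median of -0.00157. Without female replicate 3 the medians were 0.65, 0.0603 and -0.038, and without male replicate 2 as well they were 0.728, 0.0553 and -0.0657. Pairs share libraries and depth, so these are descriptions. The closest pairs were Cyp51 with Sc4mol (r = 0.980) and Sqle with Dhcr7 (r = 0.972) in the sterol branch, and Lpin1 with Mlxipl (r = 0.970) outside it.

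Sterol genes ran alongside the keratinocyte markers, although of the 13 only Sqle passed the test of Pearson r given further on, and Sqle, Mvd and Dhcr7 that of Spearman rho. The sterol level, the mean over 13 genes of log2 CPM centred on each gene, was -0.29, -0.012, 0.27 and -0.22 in female replicates 1 to 4, against 0.0073, -0.0057, 0.027 and 0.23 in male replicates 1 to 4. The keratinocyte marker level was -0.29, 0.18, 0.26 and -0.37 in female replicates 1 to 4, against 0.12, -0.11, 0.020 and 0.18 in male replicates 1 to 4. Female replicates 1 and 4 were lowest in both measures and female replicate 3 was highest in both. All 13 sterol members had their highest library in female replicate 3 or male replicate 4, and 11 had their lowest in female replicate 1 or 4. Over the 8 libraries all 13 correlated positively with the keratinocyte level (median r = 0.693, range 0.589 to 0.928). Over all tested genes the median was -0.0613. Without female replicates 4 and 1, the libraries farthest from the median level, r was -0.333, -0.048 and -0.278 for Lss, Cyp51 and Sc4mol. For the other sterol members it then ran from 0.302 (Idi1) to 0.876 (Insig1). The 15 keratinocyte markers, led by Krt2, Krt10 and Krt1, summed to 69051 to 101323 CPM in females and 85129.6 to 109788 CPM in males. Their part in the difference between the sexes was not tested, and the covariate above cannot decide it.

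Sterol members also correlated positively with sebocyte markers (13 of 13, median r = 0.554) and sweat gland markers (13 of 13, 0.705), and negatively with fast muscle (13 of 13, -0.742) and macrophage markers (13 of 13, -0.675). Centred within each sex, the median r was -0.867 for fast muscle, -0.748 for macrophage, 0.795 for keratinocyte, 0.757 for sweat gland and 0.477 for sebocyte markers. Without the 2 libraries farthest from the median, the sweat gland median was 0.167 and the keratinocyte median 0.613. For fast muscle it was -0.743 and for macrophage markers -0.554. The sebocyte median was then 0.584, with r = 0.966 for Lss, 0.936 for Cyp51, 0.9435 for Sc4mol and, lowest, -0.391 for Srebf2. Relations with the adipocyte level had a median of 0.0426, with hair follicle markers 0.377 and with Schwann cell markers -0.554. The 12 sebocyte markers, with Krt79, Far2 and Fa2h the highest, summed to 1067 to 1355 CPM in females and 1099 to 1592 CPM in males, and the 8 counted sweat gland markers, with Aqp5, Trps1 and Krt18 the highest, to 361 to 557 CPM in females and 401 to 577 CPM in males. Of the sweat gland list, Dcpp1 had 0 counts in every library.

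**Figure D4:**
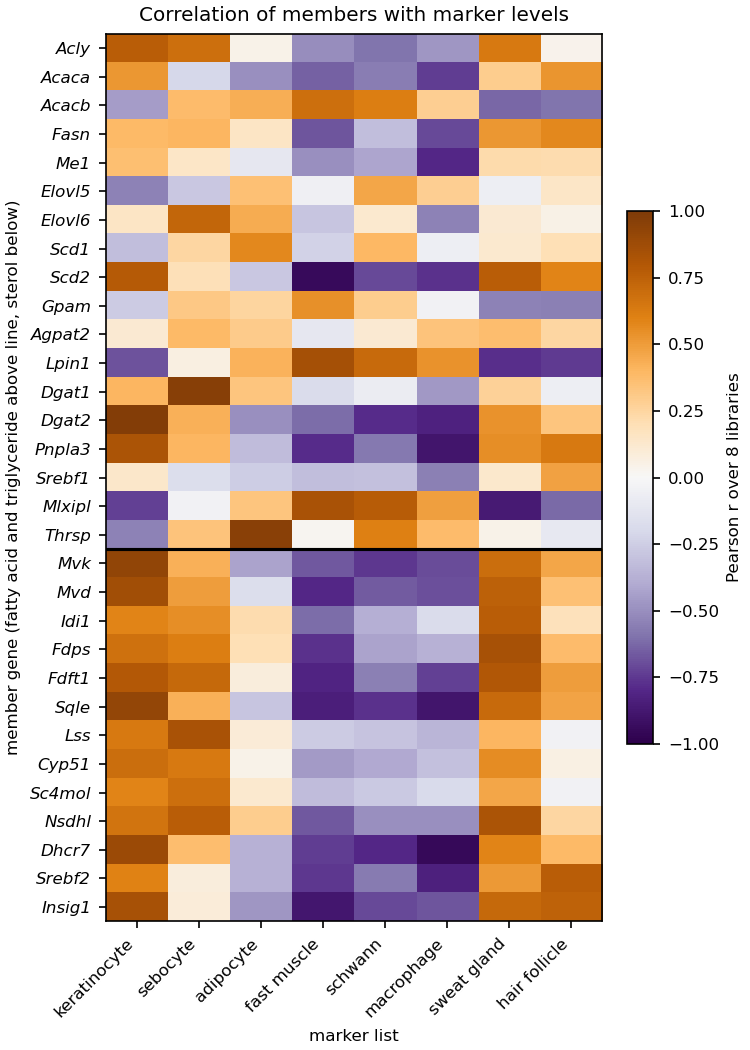
Pearson r over the 8 libraries between each counted member (rows) and the level of each of 8 marker lists (columns), none of which holds a member. Sterol rows are alike, positive for keratinocyte, sebocyte and sweat gland and negative for fast muscle, while fatty acid and triglyceride rows differ from each other.

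Fatty acid and triglyceride members ran alongside different marker lists. Of 248 relations between a member and a marker level, 4 passed an exact permutation test of Pearson r and 12 one of Spearman rho (two-sided, Benjamini-Hochberg over the 248). The 4 were among the 12, and 2 of the 4 were in this branch. Dgat2 followed the keratinocyte level, with Pearson r = 0.981 (exact permutation p = 9.92e-05, adjusted p = 0.0123) and Spearman rho = 0.929 (exact permutation p = 0.00223, adjusted p = 0.0461), and r = 0.942 without female replicate 4 and female replicate 1, the 2 libraries farthest from the median marker level. Dgat1 followed the sebocyte level, with Pearson r = 0.965 (exact permutation p = 7.44e-05, adjusted p = 0.0123) and Spearman rho = 0.976 (exact permutation p = 0.000397, adjusted p = 0.0246), and r = 0.902 without male replicate 1 and female replicate 4, the 2 libraries farthest from the median marker level. The sebocyte list itself holds genes of lipid metabolism, among them Scd3 and Soat1, which are also listed with the other pathway genes. Whether Dgat1 follows sebocyte content was not tested. The other 2 of the 4 were Sqle with keratinocyte markers and Dhcr7 with macrophage markers. For Sqle the values were Pearson r = 0.917 (exact permutation p = 0.000496, adjusted p = 0.0307) and Spearman rho = 0.952 (exact permutation p = 0.00114, adjusted p = 0.0404), and r = 0.830 without female replicate 4 and female replicate 1, the 2 libraries farthest from the median marker level. For Dhcr7 they were negative, with Pearson r = -0.951 (exact permutation p = 0.000198, adjusted p = 0.0164) and Spearman rho = -0.929 (exact permutation p = 0.00223, adjusted p = 0.0461), and r = -0.861 without female replicate 3 and female replicate 2, the 2 libraries farthest from the median marker level. Centred within each sex, r was 0.981, 0.964, 0.948 and -0.957 in that order. The marker levels are not independent of each other. Female replicates 1 and 4 had the lowest keratinocyte levels (-0.29 and -0.37) and the highest macrophage levels (0.30 and 0.87). Dhcr7 also had r = 0.890 with the keratinocyte level (exact permutation adjusted p = 0.0707). Whether relations with different lists are separate was not tested. The 9 macrophage markers, with Lyz2, Csf1r and Mrc1 the highest, summed to 789.6 to 2655 CPM in females and 1405 to 1683 CPM in males.

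Muscle and fat stood beside other members, short of the threshold for Pearson r. Lpin1 and Mlxipl had r = 0.846 and 0.8287 with the fast muscle level (exact permutation adjusted p = 0.125 and 0.0971). Their Spearman rho was 0.976 in each case, which did pass (exact permutation adjusted p = 0.0246). Without female replicate 3 and male replicate 2 their r was 0.904 and 0.979. Scd2 ran the other way, with r = -0.938 (exact permutation adjusted p = 0.0502) and rho = -0.952 (adjusted p = 0.0404). The 16 fast muscle markers, with Atp2a1, Acta1 and Myh1 the highest, summed to 40.8 to 22548 CPM in females and 1021 to 30318 CPM in males. Thrsp followed the adipocyte level, with r = 0.954 (exact permutation adjusted p = 0.0650) and rho = 0.929 (adjusted p = 0.0461). Its r was 0.766 without female replicate 2 and male replicate 1, the libraries farthest from the median marker level and lowest for Thrsp. The 14 adipocyte markers, with Cd36, Lpl and Fabp4 the highest, summed to 399 to 1009 CPM in females and 522 to 951 CPM in males, so that both sexes held fat-rich and fat-poor libraries. The remaining relations that passed for Spearman rho were Mvd and Dhcr7 with the keratinocyte level (rho = 0.976 and 0.952, exact permutation adjusted p = 0.0246 and 0.0404), Sqle with the macrophage level (rho = -0.929, adjusted p = 0.0461) and Mlxipl with the sweat gland level (rho = -0.929, adjusted p = 0.0461). With the adipocyte level, Fasn had r = 0.155 and Scd1 r = 0.578.

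**Figure D5:**
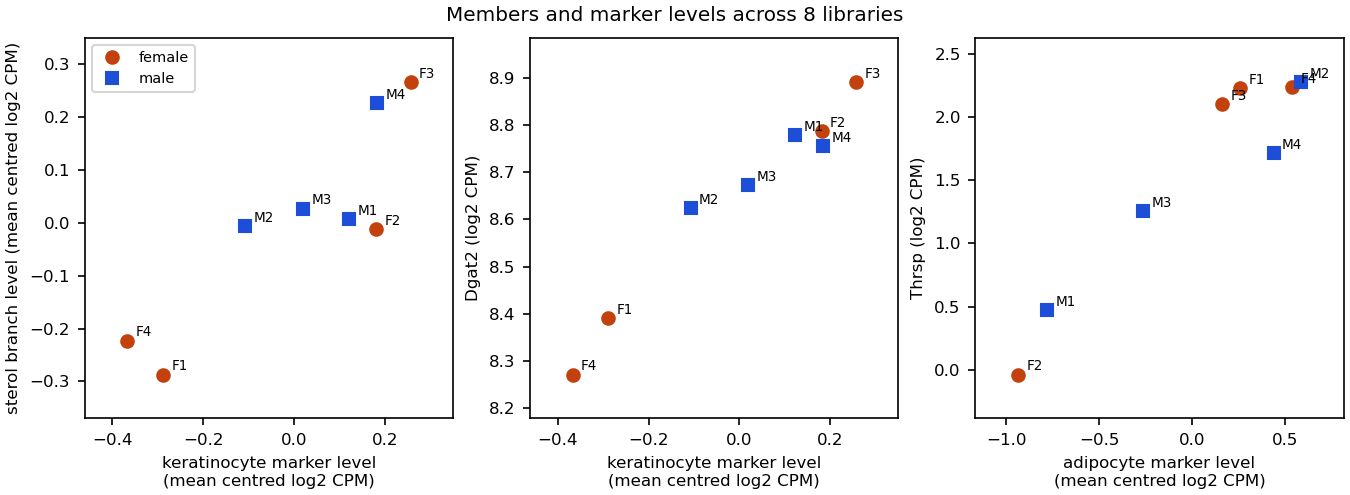
Each point is 1 library, labelled by sex and replicate: sterol branch level against keratinocyte marker level (left), Dgat2 against keratinocyte marker level (middle) and Thrsp against adipocyte marker level (right), all on log2 CPM scales. Female replicates 1 and 4 lie lowest and female replicate 3 highest in the left and middle panels, and female replicate 2 and male replicate 1 lie lowest in the right panel.

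Other genes of these pathways, listed apart from the members, gave 0 calls as well. Of 33 tested genes around fatty acid synthesis 20 lay above 0 and 13 below (median log2 fold change 0.034). In edgeR 3 of the 33 had an unadjusted p under 0.05, all higher in females, against 4.08% of all genes. Those were Idh1, a cytosolic source of NADPH (edgeR adjusted p = 0.594 at a log2 fold change of 0.27 with SE 0.080), Fads3, of the fatty acid desaturase family (edgeR adjusted p = 0.718 at a log2 fold change of 0.28 with SE 0.10), and Acsl3, an acyl-CoA synthetase (edgeR adjusted p = 0.753 at a log2 fold change of 0.29 with SE 0.12). Next by p came Slc25a1, the mitochondrial citrate carrier (edgeR adjusted p = 0.815 at a log2 fold change of -0.17 with SE 0.086), and Hsd17b12, a reductase of fatty acid elongation (edgeR adjusted p = 0.827 at a log2 fold change of -0.22 with SE 0.12). For Idh1 the sexes did not overlap, at 117 ± 9.54 CPM over the females and 97.4 ± 6.19 CPM over the males. It was 1 of 33 without overlap, where 2.93% of all genes did not overlap with females higher.

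Of 23 tested genes around sterol synthesis and handling 10 lay above 0 and 13 below (median -0.026). In edgeR 2 in each direction had an unadjusted p under 0.05, against 4.08% of all genes higher and 2.45% lower in females. Without overlap between the sexes was 1 of the 23, with females higher, against 2.93% of all genes. Higher in females by that measure were Npc1, which moves cholesterol out of lysosomes (edgeR adjusted p = 0.637 at a log2 fold change of 0.24 with SE 0.075), and Ggps1, which makes geranylgeranyl diphosphate (edgeR adjusted p = 0.761 at a log2 fold change of 0.23 with SE 0.10). Lower were Acat2, which makes acetoacetyl-CoA at the entry of the pathway (edgeR adjusted p = 0.754 at a log2 fold change of -0.31 with SE 0.13), and Hsd17b7, the reductase that completes the removal of the carbon 4 methyl groups begun by Sc4mol (edgeR adjusted p = 0.761 at a log2 fold change of -0.46 with SE 0.20). Lbr, a lamin receptor with sterol reductase activity, came next (edgeR adjusted p = 0.761 at a log2 fold change of 0.20 with SE 0.089). Hsd17b7 averaged 168 ± 50.0 CPM over the females and 231 ± 24.6 CPM over the males, and its libraries overlapped.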

How the data were processed

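Each library's file, as deposited, lists raw counts of reads by gene symbol. TopHat2, HTSeq, bcl2fastq and build mm9 are named in the submitters' processing notes. Versions, annotation and strand setting are not given there. Per the labels' protocols the kit was stranded and poly(A)-selecting. The counter's summary lines stayed out of library sizes: no-feature reads were 18 to 21.1% and ambiguous reads 0.198 to 0.231% of uniquely placed reads, and alignments that were not unique made up 45.2 to 48.7% of all entries.

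Female was compared with male in edgeR 4.0.16 (R 4.3.3; filterByExpr, TMM, robust quasi-likelihood test, sex as sole term, Benjamini-Hochberg over 14790 genes, call at 0.05). SE is the log2 fold change over the root of F. Log2 CPM used a prior count of 2. All members were named; of other pathway genes, up to 5 a branch by smallest p, of marker lists the 3 of highest CPM, and the 10 non-members most like each branch, of which 1 is not reported here. Members and lists were chosen with earlier results of these data known. Alternatives were DESeq2 1.42.0, limma 3.58.1 voom, other size factors, filters and covariates, a replicate block and leaving out libraries. On simulated counts for female over male (14693 genes tested) edgeR recovered 10 of 83 genes set to 1.5-fold, 24 of 58 set to 2-fold and 50 of 59 set to 4-fold, and also called 5 unchanged genes. Replicate libraries of 1 sex differed beyond sampling noise (chi-square per degree of freedom 13.2 or more), but the labels do not say that each came from its own mouse, so p-values measure the spread between these samples.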

Additional observations from a re-analysis of the deposited data

Results flagged for a closer look

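Of 66 groups of 4 libraries of the same sex (31 members and 2 branch levels), 8 had 1 library set far off from its 3 companions, by Dixon's criterion. Chance alone sets off about 1 group in 20. Acacb in female replicate 1 had 6.75 on the log2 CPM scale, while the 3 other females ran from 5.77 to 5.89. Elovl5 in female replicate 4 had 6.56 on the log2 CPM scale, while the 3 other females ran from 6.35 to 6.38. Gpam in male replicate 2 had 7.38 on the log2 CPM scale, while the 3 other males ran from 6.71 to 6.78. Agpat2 in female replicate 2 had 3.13 on the log2 CPM scale, while the 3 other females ran from 3.41 to 3.47. Thrsp in female replicate 2 had -0.04 on the log2 CPM scale, while the 3 other females ran from 2.10 to 2.24. Mvd in male replicate 4 had 6.54 on the log2 CPM scale, while the 3 other males ran from 6.35 to 6.36. Idi1 in male replicate 4 had 3.82 on the log2 CPM scale, while the 3 other males ran from 3.31 to 3.37. The level of the sterol branch in male replicate 4 had 0.23 as mean centred log2 CPM, while the 3 other males ran from -0.01 to 0.03. Female replicate 1 and male replicate 2, which stood out for Acacb and Gpam, held the most fast muscle transcript of their sexes (22548 and 30318 CPM summed over 16 markers). Female replicate 2, low for Agpat2 and Thrsp, had the least adipocyte transcript of the females (399 CPM summed over 14 markers). Over the 8 libraries the adipocyte level had r = 0.954 with Thrsp and 0.298 with Agpat2 (exact permutation adjusted p = 0.0650 and 0.652). Whether muscle or fat accounts for the values that stood apart was not tested.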

How the results depend on the processing

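No member was called in any of the 21 alternatives, of which 1 raised the threshold to 0.1 in the fit with sex alone and the others kept 0.05. The lowest adjusted p values were 0.0739 (edgeR, Srebf2 with the keratinocyte covariate) and 0.0824 (edgeR, Cyp51 with the fast muscle covariate). Of 651 combinations of a member and an alternative, 39 turned the sign of a log2 fold change that was not called, in 14 of 31 members; the cause was not tested. With the fast muscle covariate these were Pnpla3 -0.064, Mlxipl 0.14, Sqle -0.091, Dhcr7 -0.037 and Insig1 -0.079. With the keratinocyte covariate they were Mvk 0.012, Mvd 0.025 and Fdft1 0.048. Without female replicate 3 and male replicate 2 together they were Acacb 0.021, Scd2 -0.056, Gpam 0.10, Lpin1 0.39, Pnpla3 -0.18, Mlxipl 0.86, Sqle -0.16, Dhcr7 -0.081 and Insig1 -0.20. Leaving out 1 library at a time, the log2 fold changes ran from -0.13 to 0.0067 for Mvk, -0.13 to 0.052 for Mvd, -0.19 to 0.060 for Fdft1, -0.12 to 0.11 for Sqle, -0.019 to 0.24 for Elovl6, -0.0077 to 0.19 for Scd2, -0.13 to 0.25 for Pnpla3, -0.061 to 0.18 for Dhcr7, -0.10 to 0.11 for Insig1, -0.24 to 0.078 for Gpam, -1.20 to 0.14 for Lpin1, -1.37 to 0.55 for Mlxipl and -0.14 to 0.024 for Nsdhl. The median of the fatty acid and triglyceride branch ran from -0.042 to 0.13 and that of the sterol branch from -0.14 to 0.014, both including 0. The genes called in the whole table, 6 higher and 8 lower in females, were 57 and 55 with DESeq2, 70 and 50 with the keratinocyte covariate, 2 and 5 with the replicate block, and 4 and 5 without female replicate 3 and male replicate 2. Leaving out 1 library they were 2 to 7 higher and 6 to 10 lower, with 3 higher without male replicate 1 and 2 without male replicate 3 or male replicate 4. The replicate block left 0 members called. Deviations of libraries with the same replicate number correlated at -0.308 to -0.0911, which gave no sign of a pairing by number. Such correlations over all genes cannot exclude a pairing, because any other difference between the libraries enters them as well. With 4 libraries a sex, edgeR called 24 of 58 simulated 2-fold changes and 10 of 83 of 1.5-fold. This limits what can be read from the absence of calls alone. The simulation was not restricted to the members. For the members, the 95% interval of the fold change lay within 2-fold in 27 of 31 cases and within 1.5-fold in 22.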

Other observations

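Acly stood lower in females relative to several fatty acid synthesis genes. The ratio Acly to Fasn was 0.778, 0.883, 0.859 and 0.884 in female replicates 1 to 4, against 1.10, 1.05, 1.01 and 1.10 in male replicates 1 to 4. Every female library lay below every male library, although neither gene passed the test alone. Acly to Me1 was 2.25, 2.20, 2.41 and 2.39 in female replicates 1 to 4, against 2.90, 2.72, 2.99 and 3.28 in male replicates 1 to 4, also without overlap. Ratios of Acly to Acaca, Scd1, Scd2 and Srebf1 kept the sexes apart in the same direction. Over the 8 libraries Acly correlated with Cyp51 at r = 0.925 and with Lss at r = 0.911. Of 153 ratios within the fatty acid and triglyceride branch 11 (7.19%) did not overlap, and of 234 ratios between the branches 35 (15%), beside 4.85% of all gene pairs at a mean CPM of at least 5. The ratios share genes and were picked out after their values were seen, so none was tested.

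Among 11875 other genes with a mean CPM of at least 5, those whose log2 CPM over the 8 libraries was most like the sterol level (Pearson r, as a description) were Scel (0.992), Dsc2 (0.970), Zfp54 (0.966), 0610007P14Rik (0.960), Slc6a14 (0.958), Cish (0.957), Sacm1l (0.956), Pank3 (0.955), Dmkn (0.953) and Klk7 (0.953). Scel, Dsc2, Dmkn and Klk7 are known from the upper epidermis, and Cish is a feedback gene of the prolactin receptor pathway. RefSeq lists 0610007P14Rik under the newer symbol Erg28, named after the yeast sterol synthesis gene. Among those most like the fatty acid and triglyceride level were Plin4 (0.974), Insr (0.969), Rcor3 (0.965), Stk40 (0.964), Dld (0.959), Bche (0.957), Phkb (0.953), BC005561 (0.941) and Intu (0.941). That level was 0.19, -0.18, 0.019 and -0.070 in female replicates 1 to 4, against -0.18, 0.34, -0.00082 and -0.12 in male replicates 1 to 4. Male replicate 2 and female replicate 1 were the highest, as they were for Lpin1, Mlxipl and Acacb. The level is a mean over 18 genes. As a median over the same genes it was 0.031 in male replicate 2 and 0.014 in female replicate 1. Female replicate 3 was highest by the median, at 0.17. Plin4 coats lipid droplets in adipocytes and muscle, and Insr encodes the insulin receptor. None of the genes named here was called between the sexes by edgeR, and the ranking itself carries no test.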
